A study of Homo sapiens with 24 samples.

Results

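HUES6 is a human embryonic stem cell line, and the libraries described here come from HUES6 cells labelled as a knockout (KO) of RBPMS, an RNA-binding protein, during induction of mesoderm. The comparison is between the 3 KO libraries taken at 48 h of induction and the 3 KO libraries taken at 6 h, chosen by genotype and hour alone. These are 6 of the 24 libraries of the study, which sampled wild-type (WT) and KO cells at 0, 3, 6 and 48 h with 3 libraries per group. All cells had been kept in FTDA medium, and the induced groups received BMP4 at 1.5 ng/ml and CHIR at 1.5 µM, so the 6 h and 48 h groups of both genotypes share line, medium and agents and differ by genotype label and hour. Of 57820 genes in the deposited table, 19835 had enough reads to be tested. The labels do not say how the KO was made, how many clones it rests on, or whether the libraries were separate cultures, so p-values measure only the spread between these samples.

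BMP4 is a secreted growth factor that acts through SMAD proteins, and CHIR inhibits the kinase GSK3 and thereby activates the WNT pathway. In the embryo these signals, with NODAL and FGF, form the primitive streak, the structure through which epiblast cells pass to become mesoderm or endoderm. Stem cells given these signals switch on early response genes within hours, and streak genes follow while the genes of pluripotency are gradually lost.

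Levels are given in CPM, reads scaled to the total of a library, which are not divided by gene length and so are not compared between genes. Changes are log2 changes at 48 h relative to 6 h with their standard error, on the log2(CPM + 0.25) scale after scaling between libraries, with adjusted p-values from limma; this scale understates the change of genes near 0. A gene was called, and is said here to have risen or fallen, at an adjusted p under 0.05. The 6 h libraries held 42668745, 46737473 and 29896358 reads and the 48 h libraries 37634402, 49093515 and 44391700. A gene without a read in a library could stand at up to 0.0595 to 0.1003 CPM, the value of 3 reads, a limit that, like the counting intervals given for single genes, covers counting error only.

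The mRNA of the targeted gene did not check the label. RBPMS, on chromosome 8, stood at 101, 96.8 and 102 CPM in the 6 h libraries and 87.7, 80.6 and 92.5 CPM in the 48 h libraries labelled KO. It was present in every library, with no overlap between the hours. The change was -0.34 ± 0.082 (adjusted p = 0.000898), or -0.20 with the CPM as deposited, and in WT libraries it was -0.27 ± 0.082 (adjusted p = 0.00701). The difference between the genotypes was -0.078 ± 0.12 (adjusted p = 0.822). The paralog RBPMS2 fell from 95.7, 99.5 and 93.7 CPM to 57, 56.5 and 64.1 CPM, a change of -0.84 ± 0.12 (adjusted p = 2.02e-06).

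A set of genes made the KO libraries of 6 h stand apart from those of both 0 h and 48 h. For 27 genes the KO libraries of 0 h and 48 h all held 5 CPM or more while those of 6 h all held 0.5 CPM or less. In 21 of these the KO libraries of 3 h were also at or under 0.5 CPM, and in 14 every WT library of 6 h held at least 5 CPM. By the same limits 2 genes behaved in this way in WT libraries. The labels do not say whether the KO libraries of different hours came from the same culture or clone, so the hour and such a difference cannot be told apart in any change given here. In bulk libraries, fewer cells of a type and less RNA per cell cannot be told apart either.

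Stem cell markers were high at both hours. POU5F1, SOX2, NANOG, DPPA4 and LIN28A summed to 5730.1 to 5913 CPM at 6 h and 4882 to 5104 CPM at 48 h. In the same libraries the neuroectoderm markers PAX6, SOX1 and LHX2 reached at most 0.257 CPM, while OTX2, which is also known from stem cells and endoderm, stood at 8.44 to 9.63 CPM at 6 h and 155 to 179 CPM at 48 h. The amnion and trophoblast markers TFAP2A, GATA3, KRT7, GABRP and CGA summed to 26.3 to 28.2 CPM at 6 h and 5.03 to 5.88 CPM at 48 h, with GABRP highest at 14.4 to 15.5 CPM and CGA at most 0.0234 CPM at 6 h. Of the neural crest markers, SOX10, FOXD3 and TFAP2B summed to 3.98 to 5.53 CPM at 6 h and 7.96 to 8.49 CPM at 48 h. Most of this was FOXD3, at 3.85 to 5.27 CPM and 6.42 to 6.72 CPM, which the KO libraries of 0 h also held at 6.83 to 8.59 CPM. SOX10 stood at 0.0856 to 0.258 CPM at 6 h and 1.53 to 1.82 CPM at 48 h, and TFAP2B reached at most 0.0266 CPM. The fibroblast markers COL3A1, LUM and DCN reached at most 0.0856 CPM, while COL1A1, which these stem cells also expressed at 0 h, stood at 41.4 to 62.6 CPM. The endothelial and blood markers CDH5, TAL1 and PTPRC summed to 2.09 to 2.33 CPM at 6 h and 0.531 to 0.631 CPM at 48 h. Mitochondrial genes took 3.39% to 4.54% of reads at 6 h and 2.87% to 2.92% at 48 h, and the part of these values and of the markers above in other changes was not tested.

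Between 6 and 48 h, 5980 genes rose and 6476 fell in the KO libraries, which is 30.1% and 32.6% of the genes tested and 62.8% together. Every KO count of a gene list given below is to be read against the shares of 30.1% and 32.6%. Some lists share members, so their counts are not all separate results. The rises made up 48.0% of the calls, but 57.2% with the CPM as deposited, a scaling that moved the median of all genes by 0.12. A rise of at least 1 on the log2 scale was called in 2434 genes (12.3%) and a fall of that size in 1986 (10%). For a size of at least 2 the numbers were 649 (3.27%) and 356 (1.79%). Libraries of the 2 hours did not overlap in 77.2% of genes, so non-overlap on its own is common here. The same interval gave 6133 rises and 6515 falls in WT libraries (63.8% called, 30.9% and 32.8%), which share no library with the KO comparison. Of the KO calls, 82.3% were also WT calls in the same direction, and this was 81.1% of the WT calls. The change differed between the genotypes in 1641 genes (8.27%), of which 1066 (5.37%) had the more positive change in KO and 575 (2.9%) the more negative one. Every count below of list members called more positive or more negative in KO is to be read against these shares of 5.37% and 2.9%. Genes called in opposite directions numbered 152. All 152 were called for the difference itself, but opposite calls in the same fit make that call nearly certain, so it is not a separate result. The number of differences moved with the fit, from 345 and 104 in edgeR on the deposited transcript counts to 1874 and 1231 with only the compared groups fitted and 2504 and 2023 without the 3 libraries that stood apart (WT 0 h library 1, KO 3 h library 3 and WT 48 h library 3).

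Many of these changes brought a gene towards its level before induction. Of the 2434 rises of at least 1, 1671 (68.7%) had a KO mean at 0 h that was nearer to 48 h than to 6 h on the log2 scale. Of the 1986 falls, 1411 (71%) did. In WT libraries the shares were 53.6% of 2433 rises and 54.9% of 2283 falls. The difference between the genotypes in these shares was not tested, and 1 of the 3 WT libraries of 0 h stood apart from its mates (r of 0.975 to 0.978 across genes, which are not independent replicates).

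Genes of the primitive streak rose. Of 14 measured members 13 rose and 0 fell, with a median log2 change of 3.87, against 30.1% rising and a median of -0.03 over all genes. MIXL1, a homeobox factor of the streak (ENSG00000185155.7, plus strand of chromosome 1, 226223618 to 226227054, hg38 with GENCODE 29), stood at 1.01, 1.2 and 1.17 CPM at 6 h and 558, 487 and 555 CPM at 48 h. The hours were far apart in every library, with a change of 8.47 ± 0.16 (adjusted p = 2.57e-21). TBXT, the T-box factor that marks streak and early mesoderm, rose from 3.09, 2.89 and 2.84 CPM to 58.9, 52.5 and 59.6 CPM, a change of 4.03 ± 0.14 (adjusted p = 5.8e-17). EOMES, a T-box factor needed for both mesoderm and endoderm, rose from 8.86, 11 and 8.86 CPM to 517, 473 and 520.0 CPM (5.55 ± 0.14, adjusted p = 2.42e-19). Both T-box genes had been higher at 3 h than at 6 h, with means of 9.78 and 92 CPM, so their course between 0 and 48 h was not a steady one. GSC, an organiser homeobox gene, had 0 reads in all KO libraries of 6 h and 30.7, 32 and 36.1 CPM at 48 h, at least 328-fold higher against 3 reads per library. SP5, a zinc finger factor induced by WNT, rose from 2.95, 2.18 and 2.78 CPM to 40.3, 42.4 and 40.6 CPM. MESP1 was the member that was not called.

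**Figure D1:**
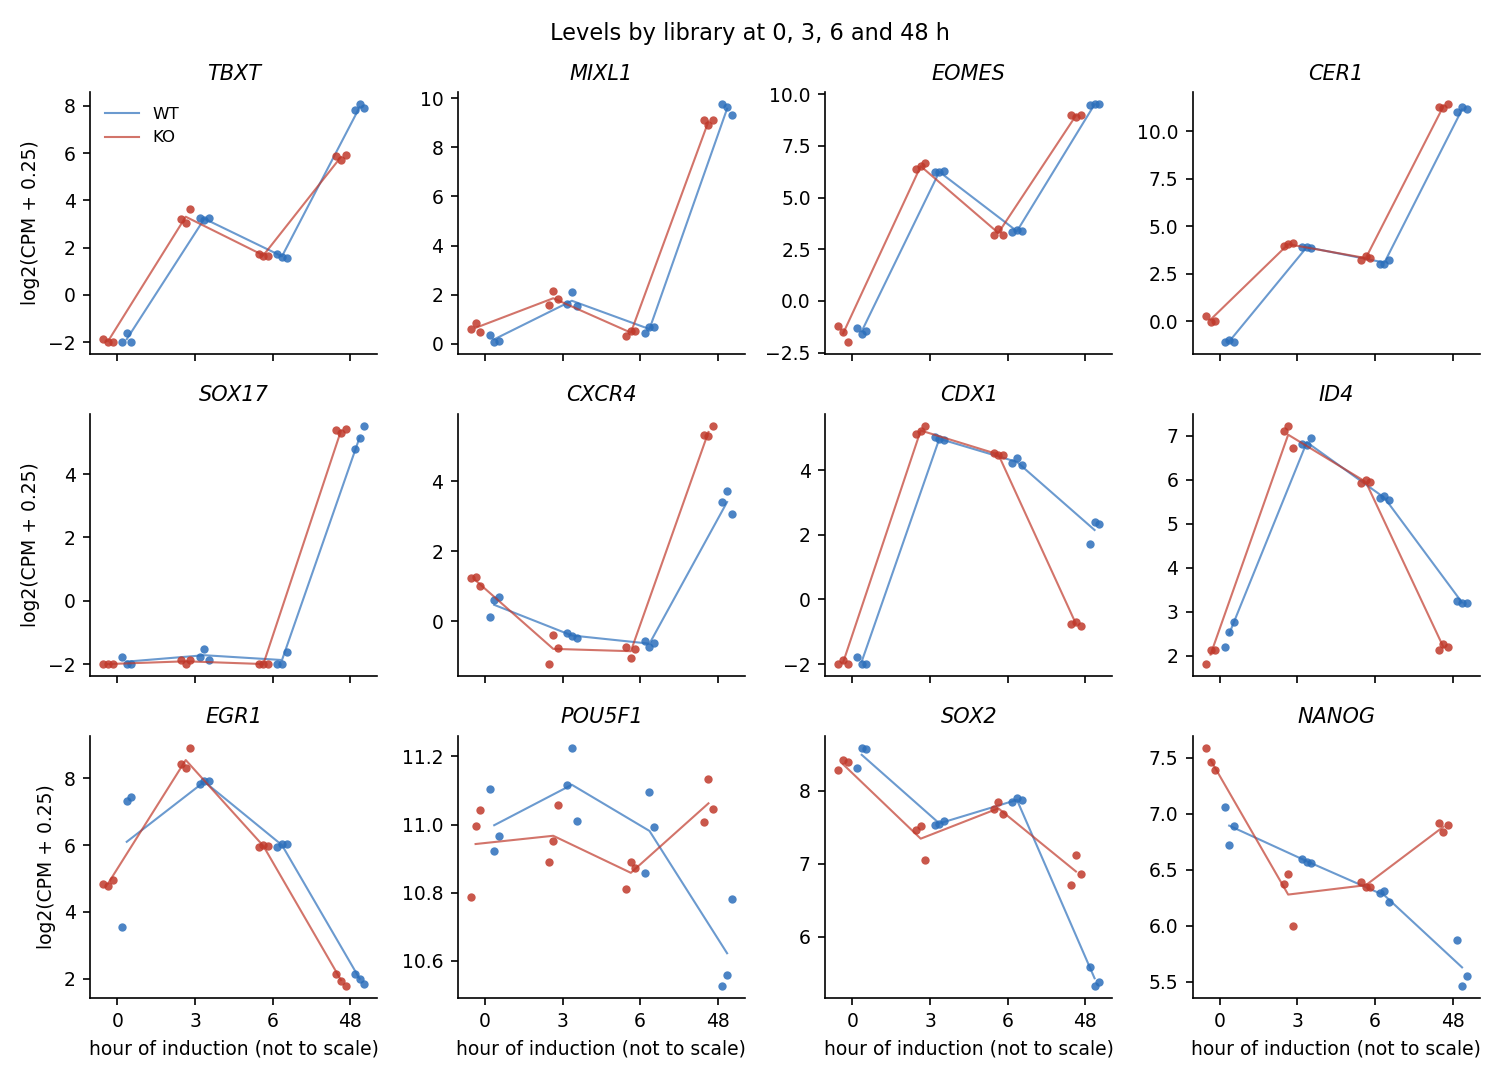
Level of 12 genes in each library, as log2(CPM + 0.25) on the y axis of each panel (ranges differ between panels), against the hour of induction, with KO in red, WT in blue, points for single libraries and lines through the 3-library means. TBXT, MIXL1, EOMES, CER1, SOX17 and CXCR4 are high in the KO libraries of 48 h, while CDX1, ID4 and EGR1 are highest at 3 h and low at 48 h in KO.

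The promoters of 2 streak genes hold a sequence that TCF/LEF factors, the nuclear effectors of WNT, are known to bind. The letters CTTTGAT, or ATCAAAG on the other strand, were searched in RefSeq promoter windows of GRCh38.p14, which run from 250 bases before to 50 bases after the gene start in RefSeq. Of 15 streak genes 9 had a window, and the letters were in those of MIXL1 and SP5, against 2.64% of all 27305 windows and 1.51% of the 13327 windows of tested genes. Among the 425 windows of genes that rose by at least 2 the share was 1.88%. A match describes the letters and does not show binding. The windows of both genes are shown because these are the members with a match, with the match in capitals; MIXL1 lies at chr1:226223414-226223713 and SP5 at chr2:170715087-170715386, both on the plus strand, and the matches start 76 and 109 bases before the RefSeq start of the window, which need not be the GENCODE start printed with a gene.
MIXL1: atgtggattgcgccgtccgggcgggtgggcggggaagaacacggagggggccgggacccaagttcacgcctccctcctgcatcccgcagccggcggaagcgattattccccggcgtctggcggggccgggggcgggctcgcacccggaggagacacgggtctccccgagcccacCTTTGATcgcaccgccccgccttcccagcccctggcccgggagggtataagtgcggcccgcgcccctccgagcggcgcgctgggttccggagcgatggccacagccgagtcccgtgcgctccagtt
SP5: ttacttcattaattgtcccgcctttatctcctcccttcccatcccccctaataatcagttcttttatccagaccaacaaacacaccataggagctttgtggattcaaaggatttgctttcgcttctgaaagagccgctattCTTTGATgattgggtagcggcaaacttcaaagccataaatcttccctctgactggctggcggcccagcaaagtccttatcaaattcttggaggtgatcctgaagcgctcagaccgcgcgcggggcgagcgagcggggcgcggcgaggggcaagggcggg

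Endoderm genes, on a list that shares members with other lists, rose as well. Of 13 measured members 11 rose and 1 fell, with a median log2 change of 4.62, against 30.1% rising and 32.6% falling over all genes. FOXA2 is also on the streak list, GATA6 on the cardiac list and CER1 on the paraxial mesoderm and NODAL lists, so these counts are not separate results. SOX17, a defining endoderm factor, had 0 reads at 6 h and 42.2, 38.8 and 42.6 CPM at 48 h, at least 410.0-fold higher against 3 reads per library. FOXA2, a pioneer factor of endoderm and node, had 1 read over the 3 libraries of 6 h and 41.8, 53.8 and 51.6 CPM at 48 h, a ratio of 5918 with a 95% counting interval of 1062 to 233800. CXCR4, the chemokine receptor used to sort endoderm, rose from 0.352, 0.235 and 0.334 CPM to 40.2, 39.4 and 47.8 CPM (6.15 ± 0.19, adjusted p = 1.73e-17). GATA6 rose from 0.258, 0.214 and 0.1 CPM to 91, 77.9 and 96.1 CPM, and HHEX, an anterior endoderm homeobox gene, from 1.55, 1.26 and 1.4 CPM to 42.1, 43.4 and 47.4 CPM. CER1, a secreted antagonist of NODAL, BMP and WNT, stood at 8.95, 10.5 and 9.8 CPM and then 2477, 2383 and 2757 CPM, with a change of 7.85 ± 0.098 (adjusted p = 1.02e-24). No endoderm gene named here overlapped between the hours, which also held for 77.2% of all genes. SOX17, FOXA2, GATA6 and CER1 were among the genes named for the size of their rise, so for them this is a description.

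The WT libraries rose less for some of these endoderm genes. CXCR4 reached a mean of 10.6 CPM in WT, and its change was larger in KO by 2.24 ± 0.28 (adjusted p = 5.55e-06). FOXA2 reached 19.9 CPM in WT, with a difference in change of 1.49 ± 0.23 (adjusted p = 7.61e-05), a call that DESeq2 did not make (adjusted p = 0.0716). For SOX17 (0.36 ± 0.24, adjusted p = 0.482) and CER1 (-0.055 ± 0.14, adjusted p = 0.907) no difference was called. Over the endoderm list 3 members were called more positive and 1 more negative in KO.

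Many mesoderm genes rose less in KO than in WT. Of 17 measured paraxial and presomitic mesoderm genes 12 rose and 0 fell in KO (median 1.57), against 14 and 2 in WT (median 2.72), and 8 were called more negative in KO and 1 more positive. Of the streak list 6 were called more negative in KO and 1 more positive. Over all genes 2.9% were called more negative and 5.37% more positive. TBXT rose to 228, 269.9 and 239 CPM in the WT libraries, well above the KO libraries, and the difference in change was -2.13 ± 0.19 (adjusted p = 4.16e-08). MSGN1, a presomitic mesoderm factor, had 0 reads in KO at 6 h and 0.452, 0.122 and 0.225 CPM at 48 h, at least 2.65-fold higher against 3 reads per library, compared with 4.39, 9.06 and 7.32 CPM in the WT libraries of 48 h. MESP1, a factor of early mesoderm, stood at 0.106, 0.0407 and 0.0225 CPM in the KO libraries of 48 h, near the limit of detection, and overlapped with 6 h (ratio 3.19 with a 95% counting interval of 0.606 to 31.4). It stood at 2.32, 3.77 and 8.45 CPM in the WT libraries. The difference in change was -3.70 ± 0.29 for MSGN1 (adjusted p = 5.73e-09) and -3.86 ± 0.39 for MESP1 (adjusted p = 2.43e-07), and edgeR on the recovered reads made neither call (adjusted p = 0.955 and 0.112), and DESeq2 did not make that of MSGN1 (0.180). RSPO3, a secreted amplifier of WNT signalling, reached 1.7, 0.856 and 1.69 CPM in KO and 25.3, 43.4 and 21.5 CPM in WT, with a difference in change of -4.17 ± 0.32 (adjusted p = 3.66e-09). PDGFRA, a growth factor receptor of early mesoderm, rose from 3.56, 3.29 and 3.58 CPM to 97, 74.4 and 93.1 CPM in KO, with no called difference from WT (-0.26 ± 0.20, adjusted p = 0.579). DKK1, a secreted WNT inhibitor, rose to 11.2, 11.1 and 10.5 CPM in the KO libraries and 41.6, 53.7 and 50.5 CPM in those of WT. The difference in change was -1.56 ± 0.26 (adjusted p = 0.000238), and neither edgeR (adjusted p = 0.214) nor DESeq2 (0.217) called it.

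The caudal genes CDX1 and CDX2 fell, by more in KO than in WT. CDX1, a caudal homeobox gene, stood at 22.8, 21.6 and 21.9 CPM at 6 h and 0.345, 0.367 and 0.315 CPM at 48 h, a change of -5.35 ± 0.15 (adjusted p = 2.09e-18), and WT libraries kept a mean of 4.27 CPM. The difference in change was -3.10 ± 0.21 (adjusted p = 3.17e-10). CDX2 went from 4.95, 5.37 and 3.91 CPM to 0.319, 0.163 and 0.338 CPM (-3.37 ± 0.24, adjusted p = 3.79e-11), with a difference from WT of -2.61 ± 0.34 (adjusted p = 1.15e-05). These were the 2 called members among the 7 of 32 caudal and HOX genes that passed the filter on low reads. Of 17 cardiac and lateral plate genes 8 rose and 4 fell (median 0.24), with 2 falls without KO library 1 of 6 h or of 48 h. GATA4, a factor of heart and endoderm, rose from 0.586, 0.428 and 0.234 CPM to 8.1, 7.27 and 9.15 CPM.

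**Figure D2:**
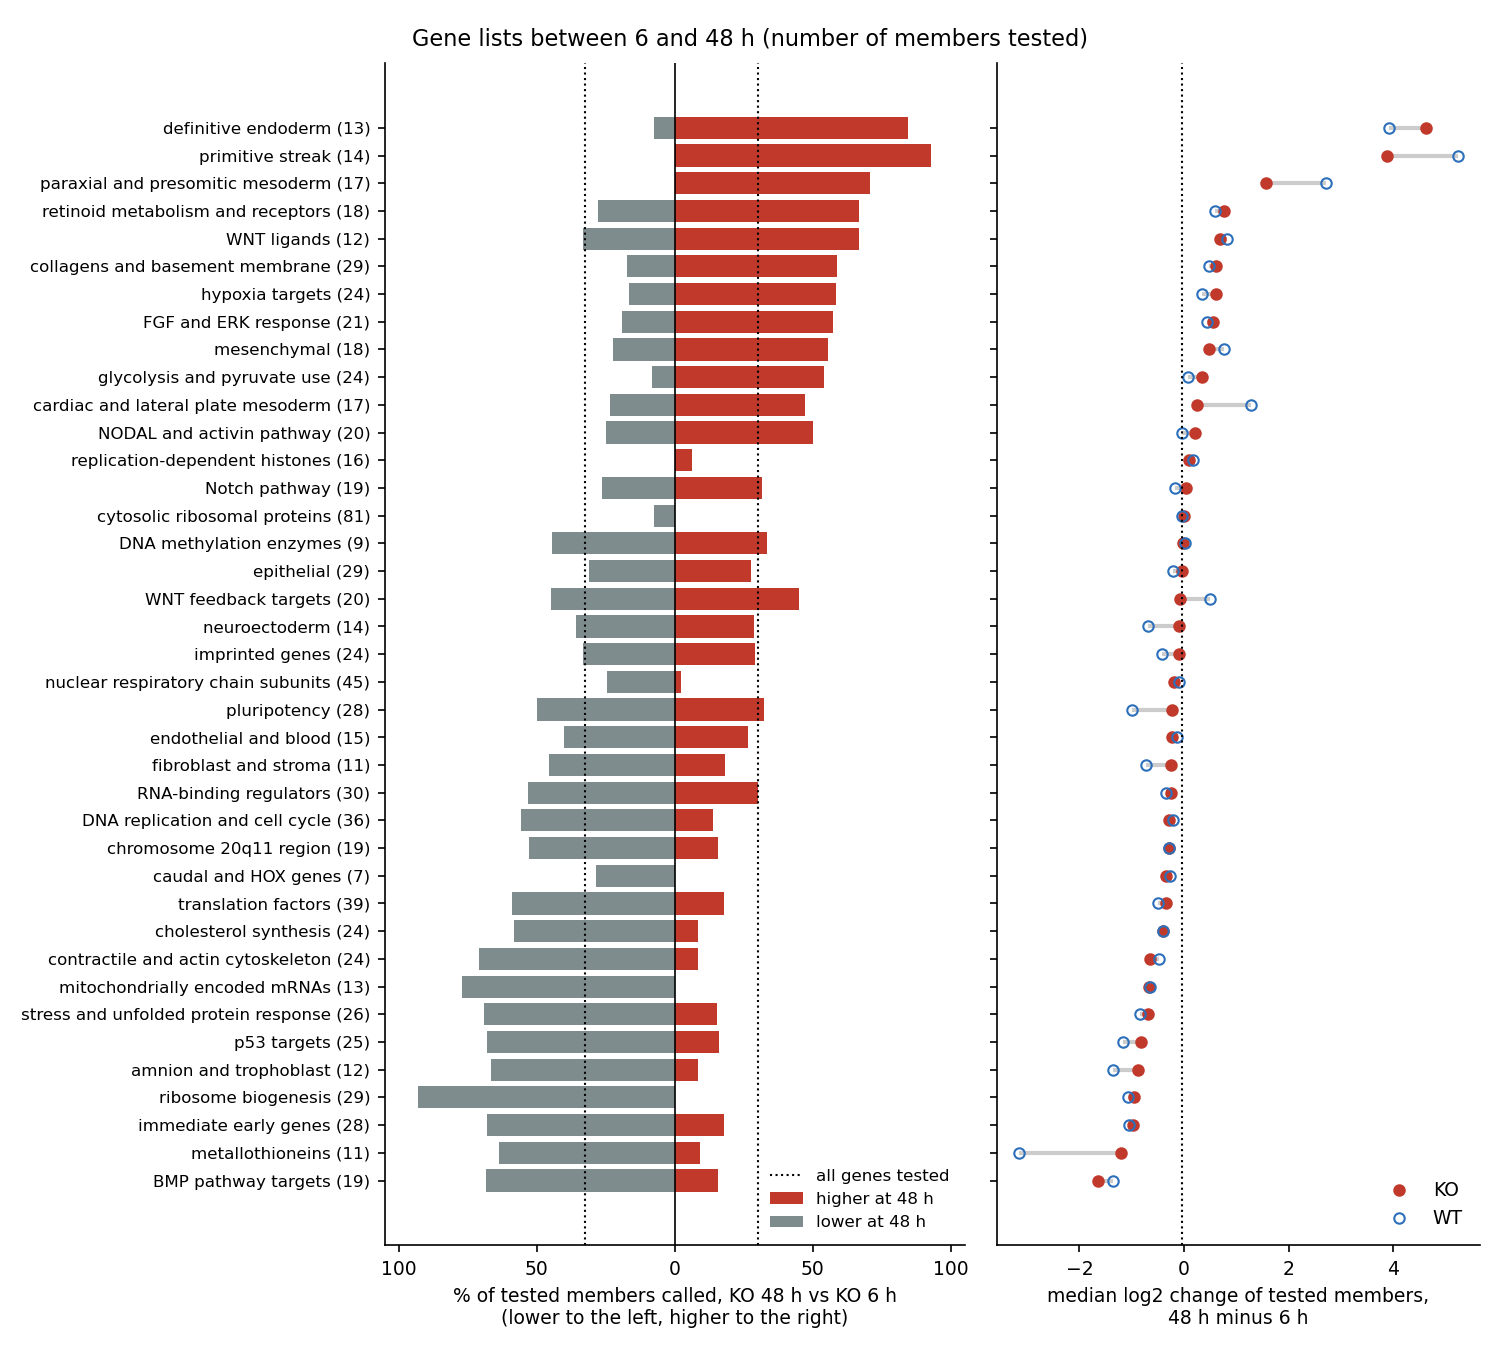
Left, the share of each list's tested members called higher (right of 0) or lower (left of 0) at 48 h in KO, with dotted lines at the shares over all genes, 30.1% and 32.6%. Right, the median log2 change of each list in KO (filled) and WT (open); primitive streak and endoderm have the highest medians in KO (3.87 and 4.62), and BMP targets the lowest (-1.65).

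Pluripotency genes split in KO libraries. Of 28 measured members 9 rose and 14 fell (median -0.24), against 2 and 25 in WT (median -0.99), and 18 were called more positive in KO with 0 more negative, against 5.37% and 2.9% of all genes. POU5F1, which encodes the core factor OCT4, stood at 1798, 1897 and 1876 CPM at 6 h and 2059, 2249 and 2112 CPM at 48 h in KO. Those libraries do not overlap in CPM, but the change after scaling was 0.062 ± 0.11 (adjusted p = 0.644), and it was called when only the 2 groups were fitted (0.11, adjusted p = 0.0457). In WT it fell by 0.51, and the difference was 0.58 ± 0.15 (adjusted p = 0.0191), a call lost without WT library 1 (adjusted p = 0.0605) or 2 (0.0559) of 48 h. SOX2 fell from 216, 230.4 and 204 CPM to 104, 138 and 116 CPM in KO and reached 47.6, 39.8 and 41.5 CPM in WT, a difference in change of 1.59 ± 0.16 (adjusted p = 1.97e-07). NANOG rose from 83.6, 81.2 and 81.1 CPM to 121, 114 and 119 CPM (0.38 ± 0.11, adjusted p = 0.00381), while WT libraries of 48 h held 58.1, 43.8 and 46.7 CPM, with a difference of 1.18 ± 0.15 (adjusted p = 1.02e-05). The KO mean of NANOG had been 179 CPM at 0 h and 78.1 CPM at 3 h, so its level at 48 h was still under that of 0 h.

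Single pluripotency genes shifted strongly in both directions. PRDM14, a repressor of differentiation genes, fell from 159.6, 161 and 148 CPM to 21.8, 22.9 and 20.3 CPM (-2.98 ± 0.13, adjusted p = 3.61e-15). PODXL, a cell surface sialomucin of stem cells and one of the largest falls in CPM, went from 2768, 2799 and 2747 CPM to 443, 445 and 426 CPM (-2.80 ± 0.12, adjusted p = 5.12e-15). ZFP42, a marker of pluripotent cells also called REX1 and named here after its values were seen, moved the other way, from 30.9, 30.4 and 30.3 CPM to 195, 203 and 184 CPM (2.52 ± 0.18, adjusted p = 3.84e-11). Its KO mean had been 212 CPM at 0 h and 24.3 CPM at 3 h, and its WT means were 148 CPM at 6 h and 102 CPM at 48 h. LNCPRESS1, a long noncoding RNA of pluripotent cells, likewise went from 0.352, 0.342 and 0.401 CPM to 5.26, 5.99 and 5.14 CPM in KO, with KO and WT means of 28.3 and 25.9 CPM at 0 h.

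Among secreted signals, FGF17 had the largest rise of any tested gene on the log2(CPM + 0.25) scale, which understates the rise of genes nearer to 0 at 6 h. This FGF ligand, on chromosome 8, stood at 0.398, 0.15 and 0.134 CPM at 6 h and 337, 339.7 and 384 CPM at 48 h (9.47 ± 0.22, adjusted p = 5.65e-20). FGF4 rose from 0.164, 0.171 and 0.201 CPM to 28.5, 30.9 and 26.4 CPM and FGF8 from 0.117, 0.193 and 0.134 CPM to 5.15, 5.17 and 4.62 CPM. FGF2, the ligand used to keep stem cells undifferentiated, fell from 275, 289 and 285 CPM to 125, 130.3 and 113 CPM (-1.35 ± 0.21, adjusted p = 8.41e-06). In the FGF and ERK list 12 of 21 rose and 4 fell (median 0.55).

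WNT ligands and the feedback inhibitors of the pathway changed unequally. Of 12 measured ligand genes 8 rose and 4 fell (median 0.68), but only 1 or 2 fell without KO library 1 or 2 of 6 h or without any KO library of 48 h, and 2 with the CPM as deposited. WNT3, a ligand of the streak, rose from 8.79, 9.74 and 9.1 CPM to 58.7, 53.8 and 57.5 CPM and WNT3A from 0.0938, 0 and 0.0335 CPM to 3.51, 3.42 and 3.78 CPM. WNT5A, a noncanonical ligand, rose from 0.82, 0.834 and 1.3 CPM to 10.4, 8.07 and 9.01 CPM in KO and to 37.6, 56.8 and 37.6 CPM in WT, a difference in change of -2.06 ± 0.26 (adjusted p = 7.91e-06). WNT8A reached 5.82, 5.46 and 6.06 CPM in KO and 19.4, 25 and 21.2 CPM in WT (-2.14 ± 0.21, adjusted p = 2.01e-07). Feedback targets gave 9 rises and 9 falls of 20, with 6 called more negative and 1 more positive in KO. DKK4, a secreted WNT inhibitor, rose from 0.492, 0.278 and 0.736 CPM to 314, 311 and 356 CPM (8.69 ± 0.17, adjusted p = 5.36e-21). LEF1, which encodes a nuclear effector of WNT, overlapped between the hours in KO, at 5.91, 6.61 and 4.85 CPM and 5.61, 5.05 and 5.38 CPM (-0.24 ± 0.18, adjusted p = 0.251), and its difference from WT was -1.14 ± 0.25 (adjusted p = 0.00363).

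BMP targets fell while NODAL and several of its pathway genes rose. Of 19 measured BMP targets 13 fell and 3 rose, with the lowest KO median of the 39 lists at -1.65 (WT -1.35), and 5 were called more negative in KO with 0 more positive. ID4, an inhibitor of bHLH factors, stood at 60.3, 63.4 and 61.5 CPM at 6 h and 4.15, 4.54 and 4.33 CPM at 48 h, close to its KO mean of 3.85 CPM at 0 h. The change was -3.89 ± 0.12 (adjusted p = 2.08e-17), with a difference from WT of -1.36 ± 0.18 (adjusted p = 1.06e-05). ID1 fell from 108, 105 and 76.8 CPM to 15.2, 17.4 and 17.6 CPM and ID3 from 361, 263 and 251 CPM to 85.6, 80.2 and 83.8 CPM. MSX2, a homeobox target of BMP, fell from 9.44, 8.67 and 8.46 CPM to 1.33, 1.06 and 0.901 CPM, by more than in WT (-1.33 ± 0.21, adjusted p = 0.000105). NODAL itself rose from 32.2, 31.6 and 30.1 CPM to 181, 185 and 181 CPM (2.39 ± 0.23, adjusted p = 7.22e-09). LEFTY1, a NODAL antagonist whose reads may be split with its near-identical neighbour LEFTY2, went from 0.0703, 0.107 and 0.134 CPM to 47.5, 49.8 and 50.9 CPM in KO and to 8.25, 6.27 and 7.55 CPM in WT, a difference in change of 2.80 ± 0.45 (adjusted p = 0.000145). Over the NODAL list 10 of 20 rose and 5 fell, with 6 called more positive and 1 more negative in KO.

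Most measured retinoid genes rose, while Notch genes changed about as often as all genes. CYP26A1, which degrades retinoic acid, rose from 4.78, 5.16 and 5.39 CPM to 159, 139 and 169 CPM in KO, by less than in WT (-1.49 ± 0.30, adjusted p = 0.00173). RARG, a retinoic acid receptor, rose from 14.3, 15.6 and 14.3 CPM to 57, 47.2 and 57.9 CPM. Of the 18 measured retinoid genes 12 rose and 5 fell (median 0.77). In the Notch list 6 of 19 rose and 5 fell (median 0.04), near the 30.1% and 32.6% of all genes: the ligand gene DLL3 rose from 3.35, 3.19 and 2.11 CPM to 9.86, 9.45 and 10.1 CPM, and the target HEYL fell from 12.2, 14.4 and 13.6 CPM to 2.87, 2.55 and 2.37 CPM.

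Most of the genes with the largest falls had low KO means at 0 h and high ones at 3 h and 6 h. LRRTM3, a synaptic adhesion protein gene, stood at 17.7, 19.5 and 19 CPM at 6 h and 0.0531, 0.0204 and 0.045 CPM at 48 h (-6.12 ± 0.19, adjusted p = 8.27e-18), with a KO mean of 0.401 CPM at 0 h. LAMP5, a membrane protein gene, went from 38.9, 38.8 and 41 CPM to 0.691, 0.591 and 0.563 CPM. The cadherin gene CDH6 fell from 32.5, 35 and 31.8 CPM to 0.345, 0.713 and 0.451 CPM. No library of one hour came near the range of the other in these 3 genes. They were named for the size of their fall, so this separation is a description and not a test.

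Further large falls were those of CBLN1, a secreted synaptic organiser, from 41.7, 39.9 and 37.8 CPM to 0.638, 0.468 and 0.901 CPM, and of SLC1A4, a neutral amino acid transporter, from 32.4, 34.6 and 31.9 CPM to 1.12, 1.02 and 0.924 CPM. CYP1A1, a target of the aryl hydrocarbon receptor, fell from 11.8, 10.9 and 10.6 CPM to 0.0797, 0.0204 and 0.135 CPM. APELA, a peptide ligand of the apelin receptor, differs from these in being expressed at 0 h (KO mean 87.1 CPM) and fell from 247, 244 and 268 CPM to 8.72, 10.5 and 8.88 CPM. LONRF2 fell from 29.4, 28.6 and 31.2 CPM to 0.93, 0.733 and 0.879 CPM. None of these 5 genes was called as different from WT in its change. LIMCH1, an actin-associated protein gene, fell from 46.1, 45.7 and 44.5 CPM to 1.49, 1.22 and 1.13 CPM, with a difference of -1.13 ± 0.20 (adjusted p = 0.000397).

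Immediate early genes, which respond within minutes to growth signals, mostly fell: 19 of 28 fell and 5 rose (median -0.98), against 32.6% falling and 30.1% rising over all genes. Their change was called more positive in KO than in WT for 2 and more negative for 1, near the 5.37% and 2.9% of all genes. EGR1 stood at 61.3, 64.5 and 62 CPM at 6 h and 4.2, 3.61 and 3.2 CPM at 48 h, after a mean of 379 CPM at 3 h. Its change was -4.15 ± 0.55 (adjusted p = 7e-07). FOSL1, an AP-1 subunit, fell from 47.2, 46.2 and 46.1 CPM to 3.35, 3.2 and 2.32 CPM. In the amnion and trophoblast list 8 of 12 fell and 1 rose (median -0.88). TFAP2A fell from 8.48, 8.88 and 7.19 CPM to 0.372, 0.183 and 0.248 CPM, GATA3 from 1.73, 2.97 and 2.41 CPM to 0.159, 0.0815 and 0.18 CPM, and IGFBP3 from 26.4, 28.8 and 27 CPM to 1.22, 0.978 and 1.26 CPM.

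Adhesion and matrix genes changed in both directions. CDH2, the mesenchymal N-cadherin, rose from 27.1, 26.9 and 29.4 CPM to 249.8, 222 and 258 CPM (2.97 ± 0.19, adjusted p = 5.87e-12). CDH1, the epithelial E-cadherin, also rose, from 352, 369 and 342 CPM to 621, 594 and 616 CPM (0.64 ± 0.13, adjusted p = 0.000163). The tight junction genes CLDN6 and OCLN fell, by 1.06 and 1.35 on the log2 scale. Epithelial genes gave 8 rises and 9 falls of 29, near the background, and mesenchymal genes 10 rises and 4 falls of 18 (median 0.47). Collagen and basement membrane genes gave 17 rises and 5 falls of 29 (median 0.62), with COL5A2 rising from 45.6, 46.4 and 42.2 CPM to 341, 331 and 359.6 CPM. COL1A2, a fibrillar collagen, rose from 3.35, 3.17 and 3.28 CPM to 228, 202 and 231 CPM and by less in WT (3.13 ± 0.23, adjusted p = 2.17e-09), where the mean at 6 h was 26.8 CPM. Contractile and actin genes gave 17 falls and 2 rises of 24 (median -0.64). MYL9, a myosin light chain, fell from 54.2, 50.8 and 51.9 CPM to 19, 20.7 and 19.7 CPM, by more than in WT (-1.10 ± 0.17, adjusted p = 6.68e-05), and PDGFRB, a receptor of mesenchymal cells, fell from 14.1, 15.5 and 16.2 CPM to 3.59, 3.48 and 3.36 CPM (difference -1.55 ± 0.21, adjusted p = 2.02e-05).

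Genes that respond to low oxygen and genes of glycolysis rose together, on lists that both hold PDK1. Of 24 hypoxia targets 14 rose and 4 fell (median 0.61), and of 24 glycolysis and pyruvate genes 13 rose and 2 fell (median 0.34). Both lists had been higher in KO at 0 h than at 6 h. The hypoxia list summed to 5755 to 6159 CPM at 0 h, 2384 to 2472 CPM at 6 h and 4199 to 4397 CPM at 48 h, still under its 0 h level. The glycolysis list summed to 22803 to 24649 CPM, 18090 to 18323 CPM and 25487 to 27068 CPM at these hours. BNIP3, a mitophagy receptor, rose from 77.6, 78.4 and 70.9 CPM to 619.6, 596 and 657 CPM (2.90 ± 0.25, adjusted p = 1.01e-09). SLC16A3, a lactate exporter, rose from 11.7, 11.2 and 9.8 CPM to 105, 111 and 125 CPM, PDK1, which restrains pyruvate oxidation, from 94, 95.3 and 98.5 CPM to 602, 623 and 615 CPM, and PFKFB4 from 11.3, 12.4 and 12.2 CPM to 78.3, 78.1 and 90.1 CPM. LDHA, lactate dehydrogenase, had one of the largest rises in CPM, from 1324, 1414 and 1323 to 3309, 3559 and 3637 CPM (1.23 ± 0.19, adjusted p = 7.69e-06). ADM, a peptide hormone gene of the hypoxia list, went the other way, from 146, 142 and 138 CPM to 9.96, 11.3 and 11.9 CPM (-3.80 ± 0.15, adjusted p = 8.23e-16). Cholesterol synthesis genes gave 14 falls and 2 rises of 24 (median -0.41).

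Ribosome biogenesis genes fell, with 27 of 29 lower, 0 higher and a median of -0.95 (WT 26 lower, median -1.08). UBTF, a factor of ribosomal RNA transcription, fell from 475, 508 and 461 CPM to 144, 144 and 151 CPM (-1.86 ± 0.12, adjusted p = 7.59e-12), to a level still above its KO mean of 95.5 CPM at 0 h. RRP12 fell from 119, 118 and 124 CPM to 39, 38 and 36.8 CPM and NCL, nucleolin, from 3200.0, 3355 and 3022 CPM to 1759.9, 1843 and 1793 CPM. Translation factor genes gave 23 falls and 7 rises of 39 (median -0.35), among them EIF1, which fell from 759, 771 and 705 CPM to 317, 320.2 and 322 CPM.

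Stress and p53 genes fell as well. Of 25 p53 targets 17 fell and 4 rose (median -0.82), and 10 were called more positive in KO with 0 more negative. CDKN1A, the cell cycle inhibitor p21, stood at 83.6, 86.1 and 76.6 CPM at 6 h and 27.2, 21.2 and 18.4 CPM at 48 h (-2.03 ± 0.15, adjusted p = 8.75e-11), a smaller fall than in WT by 0.94 ± 0.21 (adjusted p = 0.00567). GDF15, a stress-induced cytokine, fell from 10.9, 10.4 and 9.7 CPM to 2.44, 2.28 and 2.5 CPM. Stress and unfolded protein response genes gave 18 falls and 4 rises of 26 (median -0.69), with 2 rises without KO library 3 of 6 h. TRIB3 fell from 39.9, 42.6 and 40.2 CPM to 4.57, 4.58 and 5.56 CPM and ATF5 from 62.2, 59.8 and 58.7 CPM to 7.89, 8.05 and 8.76 CPM. The chaperone gene HSPA8 is not on that list and was named as one of the largest falls in CPM, from 3174, 3104 and 3214 to 1643, 1619.9 and 1539 CPM. DNA replication and cell cycle genes gave 20 falls and 5 rises of 36 (median -0.29). CCNE2, cyclin E2, fell from 49.1, 53.7 and 51.1 CPM to 7.84, 8.66 and 8.2 CPM, and MCM5, a subunit of the replicative helicase, from 387, 396 and 385 CPM to 111, 119.6 and 114 CPM. Among RNA-binding regulators, 16 of 30 fell and 9 rose, against 32.6% and 30.1% of all genes. LIN28A, which blocks let-7 microRNA maturation, fell from 2627, 2716 and 2588 to 1833, 1815 and 1792 CPM. The splicing factor gene MBNL1 fell from 31.1, 31.6 and 32.3 CPM to 7.79, 8.09 and 7.34 CPM, and IGF2BP2 rose from 63.4, 67.6 and 64.8 CPM to 213, 199 and 215 CPM.

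Of the genes that were nearly silent at one hour, 61 were switched on and 11 off between 6 and 48 h in KO libraries, taking at least 5 CPM in every library of one hour and at most 0.5 CPM in every library of the other. In WT libraries 45 were switched on and 15 off. Of the 61, 18 had also been at or under 0.5 CPM in every KO library of 0 h. These include SOX17, FOXA2, GSC, GATA6, FGF17, DKK1, FOXC1 and FOXQ1, and all 18 were at or under 0.5 CPM in every WT library of 6 h. A further 16 lay between the limits at 0 h, CXCR4, LEFTY1 and FGF4 among them. The other 27 had been at or above 5 CPM in every KO library of 0 h, against 2 of the 45 in WT.

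These 27 genes, on at 0 h and at 48 h but not at 6 h in KO, include MEG3, CBR1, MGMT, MT1G, LNCPRESS1, CFLAR, CTSF and the zinc finger genes ZNF22, ZNF253, ZNF844, ZNF558, ZNF135, ZNF680 and ZNF354C. The rule fixed their rise in KO, which is therefore a description. MEG3, an imprinted long noncoding RNA (ENSG00000214548.10, plus strand of chromosome 14, 100779410 to 100861031), had KO means of 929 CPM at 0 h and 0.0717 CPM at 3 h. It stood at 0.0938, 0.0214 and 0.1 CPM at 6 h and 226, 240.4 and 240.4 CPM at 48 h, while WT libraries kept means of 91.4 and 100.2 CPM. The difference in change was 9.47 ± 0.38 (adjusted p = 2.81e-14). CBR1, carbonyl reductase (ENSG00000159228.8, plus strand of chromosome 21, 36069941 to 36073166), went from 0.0234, 0.0428 and 0.0335 CPM to 70.6, 70.8 and 69.7 CPM after a KO mean of 32.9 CPM at 0 h, with a difference from WT of 5.17 ± 0.23 (adjusted p = 1.74e-13).

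The 7 zinc finger genes named above were picked by their KO levels, and their KO rise does not stand for their family. Of the 270 tested chromosome 19 genes with a ZNF symbol 78 rose and 89 fell (median -0.06), near the 30.1% and 32.6% of all genes. In this group, chosen after values were seen, the change was called more positive in KO than in WT in 36 (13.3%) and more negative in 4. Over all genes these shares were 5.37% and 2.9%. ZNF22, ZNF680 and ZNF354C lie on other chromosomes. ZNF22 on chromosome 10 stood at 0.305, 0.385 and 0.334 CPM and then 66.8, 69.4 and 65.7 CPM, with a KO mean of 56.2 CPM at 0 h and WT means of 35 and 50.6 CPM. ZNF253 went from 0.187, 0.0642 and 0.0669 CPM to 38.4, 35.6 and 37.7 CPM and ZNF844 from 0.164, 0.15 and 0.234 CPM to 26.5, 27.5 and 27.4 CPM, both on chromosome 19. ZNF558, named after its values were seen, had 0 reads at 6 h and 18.4, 18.3 and 15.7 CPM at 48 h, at least 174-fold higher against 3 reads per library. MGMT, a DNA repair enzyme gene also named after its values were seen, had 3 reads over the KO libraries of 6 h and 8.72, 8.86 and 8.2 CPM at 48 h, a ratio of 342 with a 95% counting interval of 117 to 1660. MT1G, a metallothionein whose reads may be shared with its near-identical relatives, went from 0.258, 0.407 and 0.234 CPM to 13.9, 13 and 13.4 CPM, while in WT it fell from a mean of 50.6 to 2.75 CPM. In the metallothionein list, which also holds the zinc exporter gene SLC30A1 and the zinc-sensing factor gene MTF1, 7 of 11 measured members fell and the 1 rise was that of MT1G, while 5 were called more positive in KO than in WT, MT1G included, against 5.37% of all genes. MT2A fell from 148, 138 and 153 CPM to 10.5, 8.64 and 8.94 CPM.

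**Figure D3:**
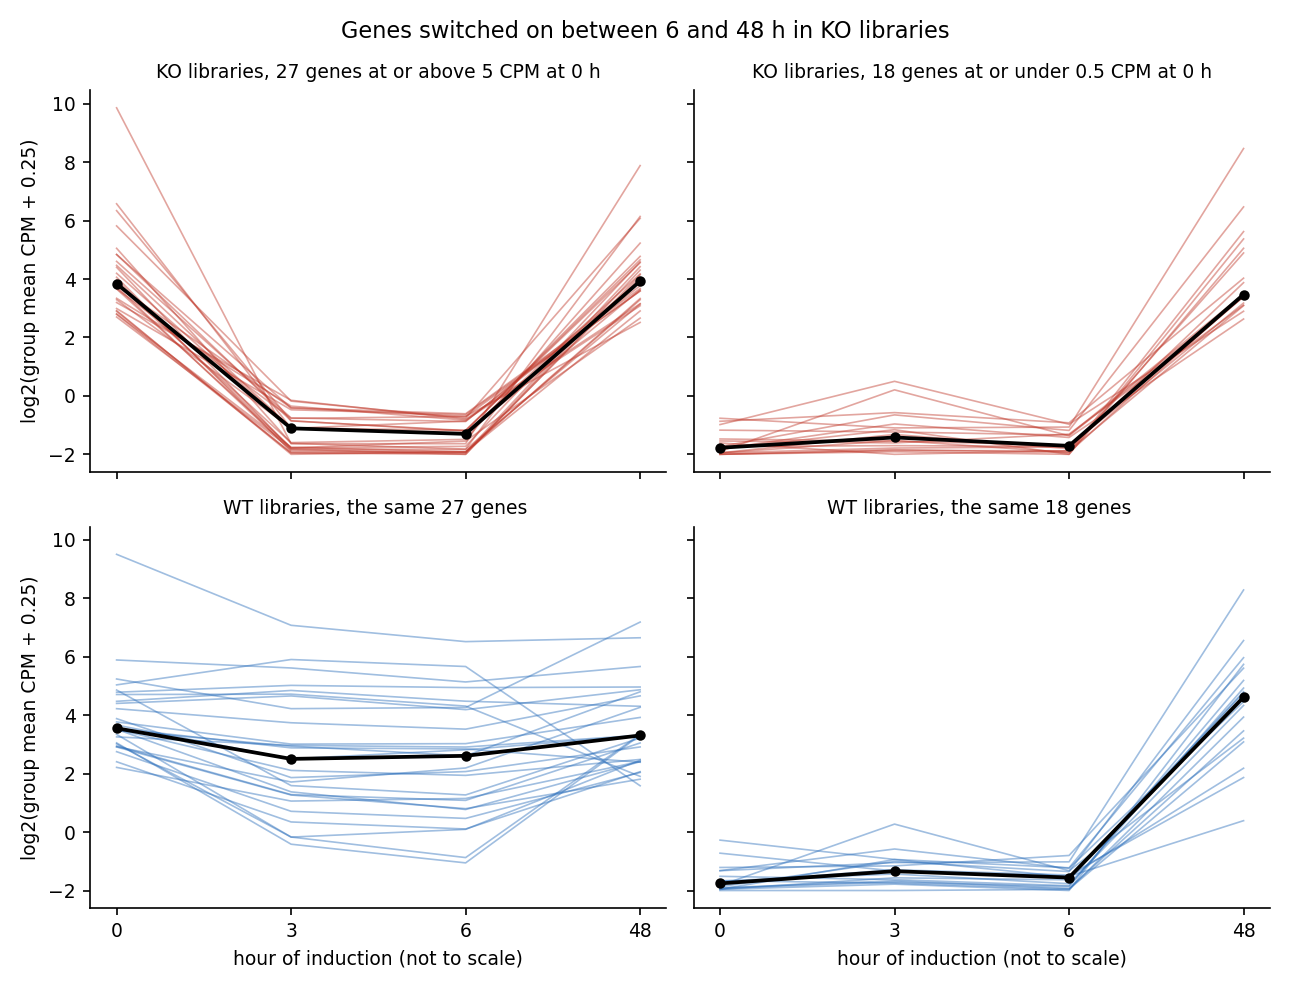
Group mean level as log2(CPM + 0.25) against the hour of induction for genes switched on between 6 and 48 h in KO libraries, each line a gene and the black line the median, with KO in the upper and WT in the lower panels. The 27 genes at or above 5 CPM at 0 h (left) are low in KO at 3 h and 6 h but spread over a wide range in WT, while the 18 genes at or under 0.5 CPM at 0 h (right) are at or under 0.5 CPM at 6 h in every WT library too.

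CG dinucleotides, the sites of DNA methylation, were counted in the promoter windows of these genes. Of the 27 genes 18 had a RefSeq window of 300 bases, with 2 to 45 CG and a median of 23.5, against a median of 25 over the 13327 windows of tested genes. The windows of 3 members with large changes are shown with CG in capitals: MEG3 at chr14:100825858-100826157 with 19, CBR1 at chr21:36069774-36070073 with 27 and ZNF22 at chr10:45000673-45000972 with 25, all on the plus strand of GRCh38.p14. The MEG3 window follows the RefSeq start and lies inside the longer GENCODE gene given above.
MEG3: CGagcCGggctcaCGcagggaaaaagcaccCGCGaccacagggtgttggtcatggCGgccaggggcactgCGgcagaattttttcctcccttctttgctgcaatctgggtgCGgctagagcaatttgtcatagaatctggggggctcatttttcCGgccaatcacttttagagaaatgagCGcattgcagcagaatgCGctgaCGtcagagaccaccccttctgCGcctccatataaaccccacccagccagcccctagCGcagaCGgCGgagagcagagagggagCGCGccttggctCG
CBR1: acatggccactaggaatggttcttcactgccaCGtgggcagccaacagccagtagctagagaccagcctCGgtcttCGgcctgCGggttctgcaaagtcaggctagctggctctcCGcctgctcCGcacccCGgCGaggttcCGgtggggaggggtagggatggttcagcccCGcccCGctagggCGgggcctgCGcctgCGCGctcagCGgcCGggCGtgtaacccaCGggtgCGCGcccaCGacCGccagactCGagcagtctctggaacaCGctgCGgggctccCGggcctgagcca
ZNF22: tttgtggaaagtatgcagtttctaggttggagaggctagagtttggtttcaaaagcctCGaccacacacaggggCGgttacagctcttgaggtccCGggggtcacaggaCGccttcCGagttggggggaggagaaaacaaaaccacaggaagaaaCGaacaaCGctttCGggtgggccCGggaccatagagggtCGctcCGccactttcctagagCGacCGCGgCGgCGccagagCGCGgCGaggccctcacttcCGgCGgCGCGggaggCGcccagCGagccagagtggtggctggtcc

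Some genes showed the reverse pattern, high in KO at 3 h and 6 h and low at 0 h and 48 h. Low levels at 0 h were not particular to KO, since WT library 1 of 0 h lay above WT libraries 2 and 3. These held 22.9, 0.849 and 1.2 CPM for TAF9B, 4.1, 0.025 and 0.109 CPM for LINC01036 and 11.5, 0.924 and 0.653 CPM for YPEL3-DT. TAF9B, a subunit of transcription complexes encoded on chromosome X, stood at 45.6, 49.8 and 46.6 CPM at 6 h and 3.08, 2.53 and 2.23 CPM at 48 h in KO, after a KO mean of 1.86 CPM at 0 h and 38.3 CPM at 3 h. In WT it went from a mean of 44.1 to 86.6 CPM, and the difference in change was -5.01 ± 0.86 (adjusted p = 0.000314). LINC01036, a noncoding RNA, went from 25.3, 25.5 and 26.1 CPM to 0.159, 0.0204 and 0.113 CPM, with a KO mean of 0.0672 CPM at 0 h (-5.23 ± 0.80, adjusted p = 8.04e-05). YPEL3-DT, a divergent transcript whose reads may be shared with its neighbour since the use of strand in counting is not given in the sources used here, fell from 15.5, 14.1 and 17.1 CPM to 0.664, 0.957 and 0.631 CPM. NAP1L5, an imprinted gene, fell from 11.6, 10.5 and 10.9 CPM to 0.717, 0.815 and 0.788 CPM (difference -2.89 ± 0.63, adjusted p = 0.00367). The imprinted list as a whole gave 7 rises and 8 falls of 24 (median -0.09), near the background. PEG3, a paternally expressed gene, had 2 reads over the KO libraries of 6 h and 0 at 48 h, against WT means of 43 and 33.2 CPM, so no change could be seen in KO.

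**Figure D4:**
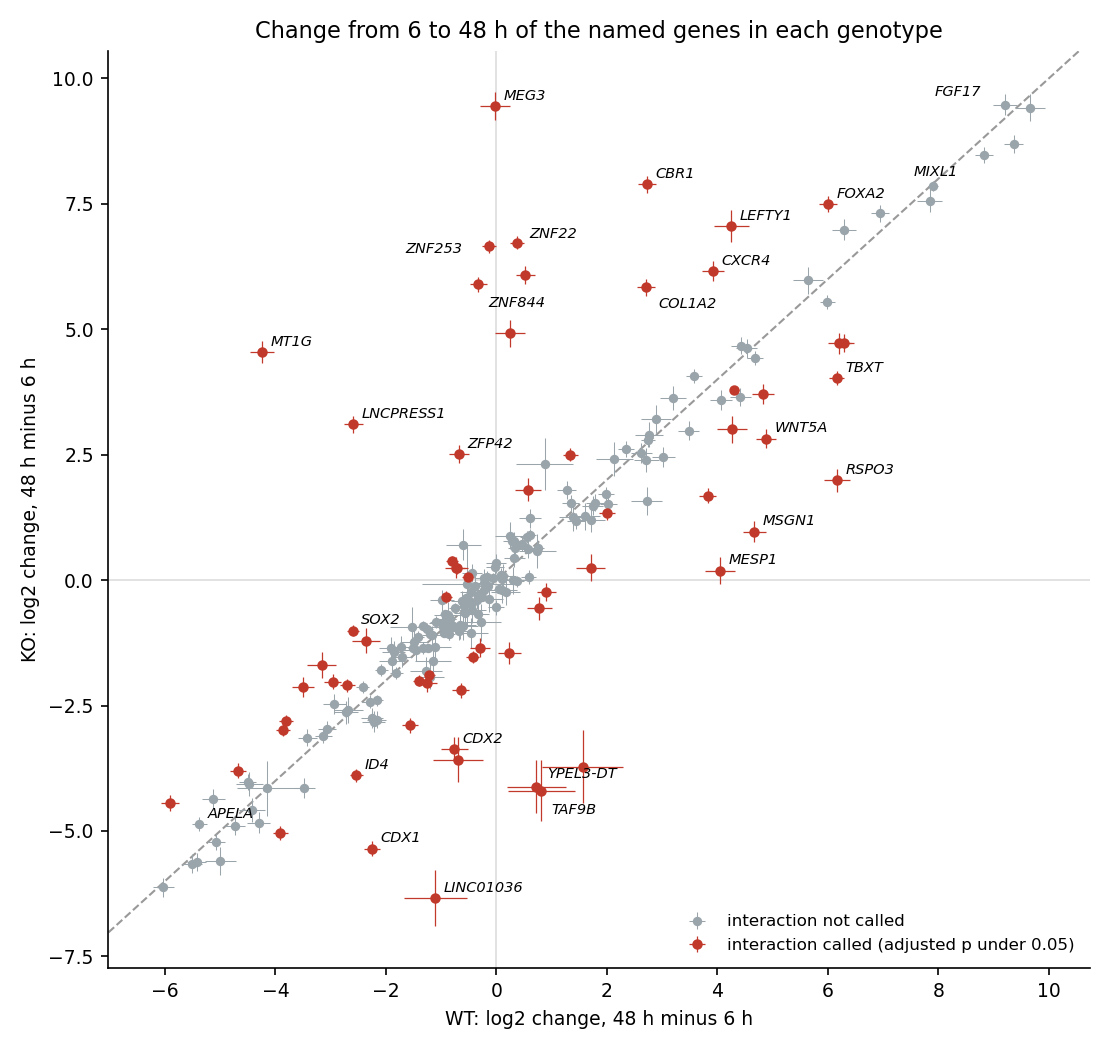
Log2 change from 6 to 48 h in WT (x axis) and in KO (y axis) for the genes named by the rule and 3 named after their values were seen, with bars for the standard error and a dashed line where both are equal. Red points were called for the difference between genotypes; MEG3, MT1G and zinc finger genes lie far above the line, and LINC01036, TAF9B, RSPO3 and MESP1 below it.

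Mitochondrial mRNAs fell in 10 of 13 genes, but in 3 to 5 without KO library 1 or 3 of 6 h or without any KO library of 48 h. MT-CYB, cytochrome b, fell from 1830.0, 1377 and 1744 to 686, 737 and 721 CPM and MT-CO3, a subunit of cytochrome c oxidase, from 5585, 4197 and 5307 to 2900.1, 2915 and 2892 CPM, with library 2 the lowest of the 6 h libraries for both.

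Several abundant or marker genes outside these groups also moved. CNTNAP2, a neural cell adhesion gene, went from 92.2, 97.1 and 93.3 CPM to 1465, 1433 and 1433 CPM (3.79 ± 0.081, adjusted p = 1.7e-20), and rose slightly more in WT (-0.51 ± 0.11, adjusted p = 0.00455). IFITM1, an interferon-induced membrane protein gene, rose from 201, 181 and 228 CPM to 1191, 1125 and 1238 CPM, with a KO mean of 892 CPM at 0 h. OTX2, a homeobox factor of anterior epiblast and neuroectoderm, rose from 8.44, 9.63 and 8.63 CPM to 169.6, 155 and 179 CPM, above its KO mean of 46.8 CPM at 0 h. The neuroectoderm list gave 4 rises and 5 falls of 14 (median -0.09), so OTX2 did not move with that list. KDR, a VEGF receptor of mesoderm and endothelium, rose from 57.1, 58.6 and 55.3 CPM to 369, 345 and 352 CPM, by more than in WT (1.15 ± 0.18, adjusted p = 0.00013), and its KO mean had been 447 CPM at 0 h. The endothelial and blood list gave 4 rises and 6 falls of 15 (median -0.24), against 30.1% and 32.6% of all genes. TET1 and TET2, enzymes that oxidise methylated cytosine, rose by 0.86 and 1.51 on the log2 scale. The list of DNA methylation enzymes gave 3 rises and 4 falls of 9 (median -0.03, lowest -1.10), so TET1 and TET2 do not stand for that list. PPIAP46, a pseudogene of the cyclophilin A family, went from 0.0234, 0 and 0.1 CPM to 205, 191 and 224 CPM, a value that is uncertain because near-identical copies can share its reads.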

How the data were processed

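RNA was measured by sequencing with a stranded mRNA kit, per the labels, in 24 libraries, of which the 3 KO libraries of 6 h and the 3 of 48 h are compared here. The authors deposited a table of CPM per gene and a table of counts per transcript. Both are on hg38 per the submitters' processing notes, which also name DESeq2; the aligner, counter and annotation are not given in the sources used here. In the CPM table the column names sit 1 cell to the left of their values. Read in that way, all 24 libraries correlated best, over 6105 genes, with a library of their own group in the transcript table, and 20 with their own library. Read as the header stands, 16 and 1 did.

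Low CPM values were whole multiples of 1 read, and 100% of values came out whole within 0.1 read, which gave 29896358 to 50451908 reads per library. CPM were divided by TMM factors (edgeR 4.0.16), and log2(CPM + 0.25) was fitted with limma 3.58.1 with a mean-variance trend over 8 groups in R 4.3.3, for genes kept by filterByExpr (at least 10 reads, 15 in total). Tests were two-sided with Benjamini-Hochberg adjustment over 19835 genes. WT was compared in the same way, and the difference between the genotypes was an interaction contrast. On simulated data with these 19835 genes, 50 genes were changed at each size. The KO comparison in limma recovered 46% of genes changed 1.5-fold, 76% changed 2-fold and 100% changed 4-fold, and 5.56% of its calls were false. In the real KO comparison 62.8% of genes were called, so these simulated shares need not hold for it. Positions and 52338 symbols (90.5% of IDs) came from GENCODE 29, matched by ID without version.

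The genes named are RBPMS and RBPMS2, the 12 largest rises and falls with 5 CPM or more in a group, the 5 largest differences between genotypes of each sign, the 6 largest rises and falls in mean CPM, and up to 5 members of each of 39 gene lists. This gave 213 genes, of which a part is described, and 3 more were named after their values were seen. The members and lists were chosen with earlier results of these data known. Counting intervals were exact binomial. Scaling, pseudocount, filter, tool, groups fitted, weights and single libraries were varied in 25 alternatives. Some of the genes this rule names are not reported here.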

Additional observations from a re-analysis of the deposited data

Results flagged for a closer look

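For 47 of the genes named in the report the change from 6 to 48 h was called as different between the genotypes, and each is given here as the KO change minus the WT change on the log2 scale, with the test of that difference in limma. Genes silent or low in the KO libraries of 6 h gave 8.79 for MT1G, 6.79 for ZNF253, 6.36 for ZNF22, 6.22 for ZNF844, 5.55 for ZNF558, 9.47 for MEG3, 5.17 for CBR1, 4.67 for MGMT, 5.70 for LNCPRESS1, 3.20 for ZFP42 and 3.13 for COL1A2. Genes high in the KO libraries of 6 h and not at 48 h gave -5.23 for LINC01036, -5.01 for TAF9B, -4.84 for YPEL3-DT and -2.89 for NAP1L5.

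Among genes of pluripotency the differences were 0.58 for POU5F1, 1.59 for SOX2, 1.18 for NANOG, 0.89 for PRDM14 and 1.00 for PODXL. The NODAL antagonist LEFTY1 and the endoderm genes CXCR4 and FOXA2 gave 2.80, 2.24 and 1.49. The receptor gene KDR gave 1.15, IGFBP3 1.47, ADM 0.87, and the p53 targets CDKN1A and GDF15 0.94 and 1.38.

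Mesoderm and caudal genes had the more negative change in KO, with -2.13 for TBXT, -3.70 for MSGN1, -3.86 for MESP1, -4.17 for RSPO3, -1.49 for CYP26A1, -3.10 for CDX1 and -2.61 for CDX2. In the WNT and BMP pathways the differences were -2.06 for WNT5A, -2.14 for WNT8A, -1.56 for DKK1, -1.14 for LEF1, -1.10 for SP5, -1.36 for ID4 and -1.33 for MSX2. The remaining genes were PDGFRB at -1.55, MYL9 at -1.10, LIMCH1 at -1.13, MCM5 at -0.69 and CNTNAP2 at -0.51.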

How the results depend on the processing

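The KO comparison gave 5922 rises and 6467 falls in edgeR and 6196 and 6170 in DESeq2 on the recovered reads. Testing only genes that reach 5 CPM in 3 libraries, which are fewer, left 4105 falls in KO, 4342 in WT and 328 more negative differences between the genotypes. With edgeR on the transcript counts summed per gene there were 4293 falls in KO, 4173 in WT, and 345 more positive and 104 more negative differences. The differences numbered 1874 and 1231 with only the groups compared, 2856 and 2672 with array weights (whose estimation stopped short of full convergence in at least 1 fit), and 2504 and 2023 without the 3 libraries that stood apart; the cause was not tested. With limits of 5 and 0.25 CPM, 39 genes were switched on and 4 off in KO, and 19 and 5 in WT.

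Leaving out single libraries gave 5601 to 5991 rises and 5497 to 5961 falls in KO, 5753 to 5991 and 5903 to 6459 in WT, and 890 to 1009 more positive and 396 to 588 more negative differences. The replicate block gave 5965 and 6443 calls in KO, 6120 and 6499 in WT, and 1029 and 558 differences. Same-numbered libraries did not deviate together (r across genes of -0.043, 0.011 and -0.035 in KO and 0.187, -0.185 and -0.119 in WT), so the numbers do not pair them.

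No result reversed. Among the values of named genes, 8 calls were lost and 2 gained over all alternatives: the losses were those of FOXA2, POU5F1, MSGN1, DKK1 and MESP1 in the difference between genotypes, and the gains those of POU5F1 and LEF1 in KO (LEF1 -0.24, adjusted p = 0.0472 with array weights in limma). Log2 changes of genes near 0 at one hour depend on the pseudocount and the tool. Depth limits MSGN1 and MESP1, which held 33 and 7 reads over the 3 KO libraries of 48 h.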

Other observations

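The X chromosome had 695 tested genes, with a median log2 change from 6 to 48 h of 0.15 in KO and -0.03 in WT, against -0.03 over all genes in both. The change was called more positive in KO in 17.8% of its genes and more negative in 3.31%, against 5.37% and 2.9% of all genes. The autosomes ranged from 3.30% on chromosome 18 to 6.84% on chromosome 19 for the more positive calls, so chromosome X lay above each of them. On chromosome 19, 270 genes with a ZNF symbol were tested, a group chosen after values were seen. Of these 78 rose and 89 fell in KO (median -0.06), 67 rose and 101 fell in WT (median -0.11), and the change was called more positive in KO in 36 (13.3%) and more negative in 4. No test of a chromosome against the others was run.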
